A study of Mus musculus with 6 samples.

Results

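Ribosomal proteins are the protein part of the cytoplasmic ribosome: those named Rps belong to the small (40S) subunit and those named Rpl or Rplp to the large (60S) subunit. Their genes lie scattered over the genome, their messenger RNAs are among the most abundant of dividing and resting cells, and many start with a tract of pyrimidines (C or T) through which mTOR and Larp1 control their translation. In T cells ribosome production is known to increase with growth and activation. The genes described here were chosen by symbol: Rpl or Rps followed by digits and at most 1 of the letters a, x, y or l, together with Rplp0, Rplp1, Rplp2 and Rpsa, and no pseudogene names. The group was proposed with earlier results of these data known, so its direction between the sorted populations is a description and not independent evidence.

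The rule found 80 genes among 38924 in each table, 31 of the 40S and 49 of the 60S subunit, on 19 chromosomes. Of these, 78 passed the filter on low counts and were tested, all 31 of the 40S subunit and 47 of the 60S subunit. The other two, Rpl3l and Rpl10l, the paralogs of Rpl3 and Rpl10, had 0 exon reads in all 6 libraries.

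The libraries came from CD4+CD25+ T cells taken from spleens and mesenteric nodes. The mice were wild type, untreated, male and female, and 10 to 16 weeks old. Cells were sorted into ILT3+ and ILT3- populations, 3 samples each, and both groups share genotype, tissue and lack of treatment. ILT3 is an inhibitory surface receptor encoded in the mouse by Lilrb4, and CD4+CD25+ cells are rich in regulatory T cells (Treg). Nothing in the labels ties a sample to a mouse or a pool of mice, so the spread that p-values are set against may be technical.

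Lilrb4, which checks the sort, had 0.499, 1.51 and 2.01 CPM (exon read counts scaled to a library of common size, after TMM) in ILT3- samples 1 to 3, against 150, 167 and 248 CPM in ILT3+ samples 1, 2 and 3. Exon reads per library ran from 6695391 (ILT3- sample 1) to 10242344 (ILT3- sample 3). The samples numbered 1 stood apart from the other four on the second principal component (77.6 and 73.4 against -58.0 to -19.3; 30.2% of the variance). The summed level of 6 T cell and Treg markers overlapped between the groups (3166 to 5299 CPM in ILT3-, 3561 to 4883 CPM in ILT3+). Summed markers of dendritic cells did not (196 to 223 against 1820 to 2817 CPM), nor did those of macrophages (9.21 to 23.6 against 45.3 to 822 CPM, the highest in ILT3+ sample 1) and erythroid cells (5.29 to 10.7 against 125 to 373 CPM). The dendritic cell sum was mostly Cd74 (mean 182 CPM in ILT3- and 1772 CPM in ILT3+) and H2-Aa (15.1 and 373 CPM). Of the rest of that list, Zbtb46, Xcr1, Batf3 and Itgax had higher means in ILT3+, Itgax mainly through sample 1. Flt3 (0.0999 and 0.0360 CPM) and Siglech (0.335 and 0.149 CPM) had lower ones. B cell markers overlapped (19.6 to 46.8 against 42.7 to 106 CPM), and neutrophil markers were at most 0.252 CPM with S100a8 and Camp at 0 in all libraries.

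Ribosomal protein genes took on average a smaller part of the reads in ILT3+ than in ILT3- cells, although the groups overlapped. They held 11.2%, 8.70% and 7.20% of total exon reads in ILT3- samples 1 to 3, against 7.31%, 5.64% and 5.19% in ILT3+ samples 1, 2 and 3. Sample 1 was the highest and sample 3 the lowest of each group, and ILT3- sample 3 lay just below ILT3+ sample 1. The means were 9.03% ± 2.02 and 6.05% ± 1.12 (SD, n = 3 each), a ratio of 0.669. An exact two-sided permutation test gave p = 0.2, where 3 against 3 samples cannot go below 0.1. Counting error was small beside this spread: the 95% Wilson intervals reached at most 0.0239 percentage points to either side. In bulk RNA, fewer cells of a type and less RNA per cell cannot be told apart. The dendritic cell, macrophage and erythroid markers given above also differed between these libraries, and their part in the shares was not tested.

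**Figure D1:**
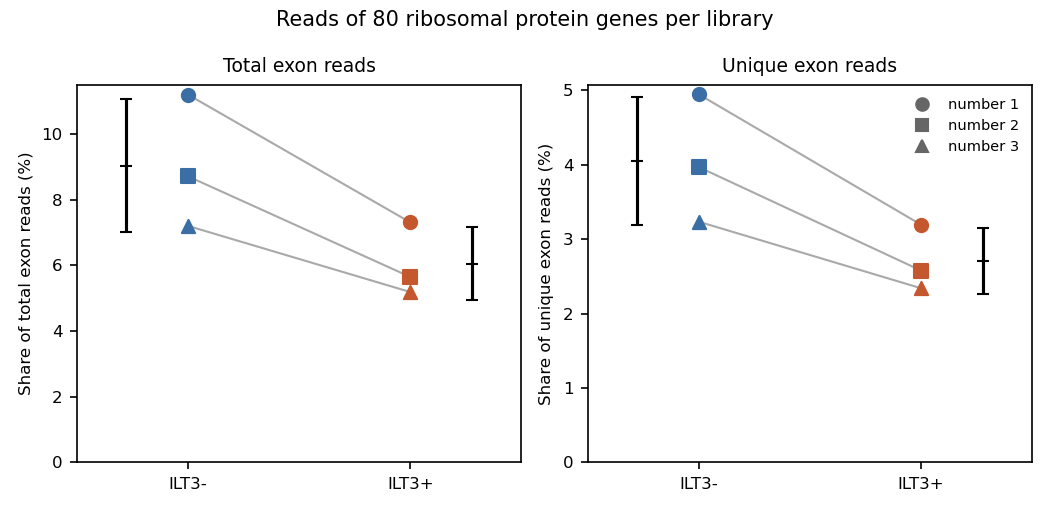
Share of total exon reads (left) and unique exon reads (right), in percent, held by 80 ribosomal protein genes in each library. Points are samples, shapes their numbers, grey lines join samples of the same number and black bars give the group mean ± SD. Every line runs downward from ILT3- to ILT3+, from 11.2% to 7.31% for number 1 on the left.

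Between samples of the same number the shares stood in similar ratios, 0.653, 0.648 and 0.721 for numbers 1, 2 and 3. Both subunits had nearly the same ratio of group means, 0.653 for 40S genes and 0.683 for 60S genes. The 60S genes together had 1.23, 1.27 and 1.30 times the reads of the 40S genes in ILT3- samples 1 to 3, against 1.26, 1.37 and 1.34 times in ILT3+ samples. These values overlapped and the difference (1.26 ± 0.0378 against 1.32 ± 0.0552, SD, n = 3) did not exceed the spread between samples when these were compared without regard to number (exact two-sided permutation p = 0.3). Within numbers 1, 2 and 3 the ILT3+ value was 1.03, 1.08 and 1.03 times the ILT3- value. Its direction turned when the sums were limited to genes with at least 50% uniquely placed reads (ratio of the group values 0.994).

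Intron reads, whose source was not tested, gave a less regular pattern. The same 80 genes held 0.340%, 0.157% and 0.210% of intron reads in the ILT3- group, against 0.225%, 0.158% and 0.165% in the ILT3+ group. The within-number ratios were 0.663, 1.01 and 0.785, the groups overlapped and the exact two-sided permutation p was 0.7. Unlike in exon reads, the samples numbered 2 had nearly equal shares.

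Gene by gene, nearly all members were lower in ILT3+ cells, by similar amounts. In the edgeR quasi-likelihood fit on group alone, 0 of 78 passed a Benjamini-Hochberg adjusted p of 0.05 (smallest 0.101, for Rps19), while 2.05% of all 11536 tested genes did (0.251% lower and 1.79% higher in ILT3+). At an unadjusted p under 0.05, 47 of 78 were lower and 0 higher, against 4.84% lower over all tested genes. DESeq2 called 5 members lower, where it called 1.7% of all genes lower. In total gene reads, which add introns, edgeR called 0 members and 2.31% of all 13694 tested genes. The fitted log2 fold change was negative for 76 members and positive for 2, Rps27l and Rpl39l. Its median was -0.65, with quartiles of -0.75 and -0.58, beside 0.00 over all tested genes. For 27 members all 3 ILT3+ values lay below all 3 ILT3- values, 8 of the 40S and 19 of the 60S subunit (7.83% of all tested genes did so). Rpl39l alone had all ILT3+ values above (12.4% of all tested genes did).

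Whether members passed depended on whether the sample number entered the fit. With the number as a block, edgeR's quasi-likelihood test called 62 of 78 members lower and 0 higher, 27 of 31 in the 40S and 35 of 47 in the 60S subunit. The same fit called 6.07% of all tested genes, 2.47% lower. These shares are over genes of every level and not over genes as abundant as the members. The log2 fold changes of the called members ran from -0.94 to -0.45, with a median over all 78 of -0.63. The labels do not state that the numbers pair the samples; the pairing was taken from the data. The block called 61 members when the samples numbered 1 were left out (3.58% of all tested genes lower), 9 without those numbered 2 (0.643%) and 43 without those numbered 3 (0.989%). Without a block, leaving out both samples numbered 1 gave 19 members (1.69% of all tested genes lower). The block with TMM factors computed without the members gave 63 (2.57% lower). In what follows, "fell" refers to the blocked fit over all 6 samples, and the fit on group alone called none of these changes.

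**Figure D2:**
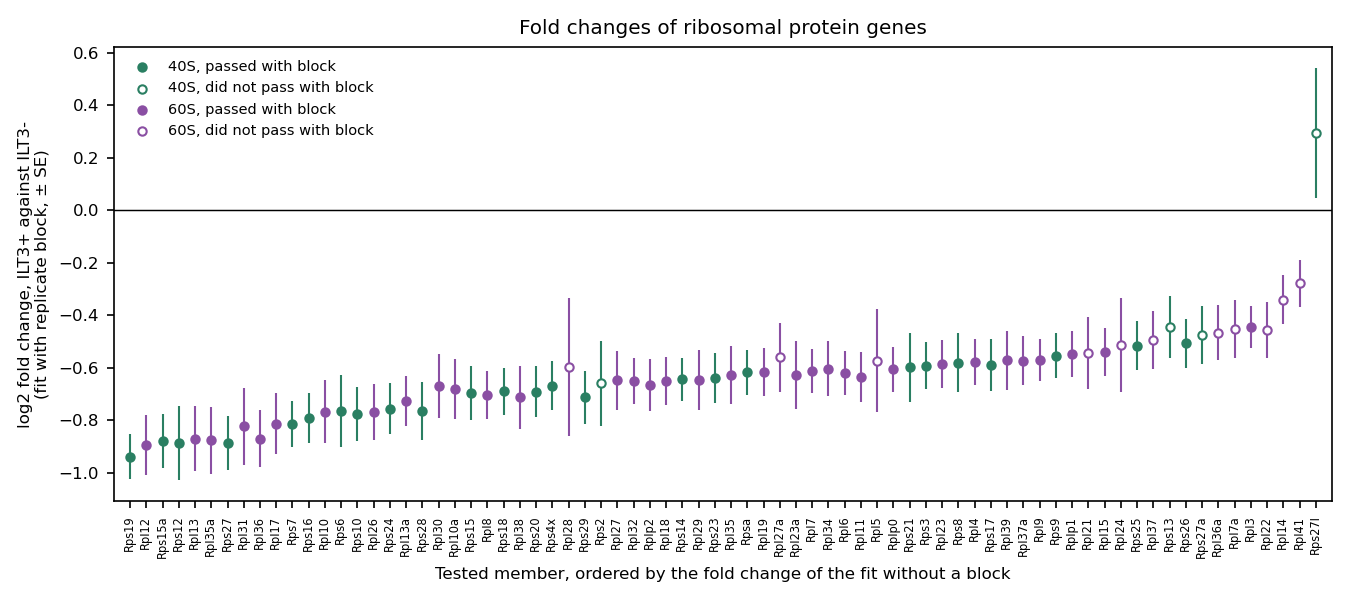
Log2 fold change (ILT3+ against ILT3-) with its SE from the fit with a replicate block, for the tested genes, ordered by the fit without a block; Rpl39l, with at most 20 reads in a library, and 3 further genes are not drawn. Filled points passed an adjusted p of 0.05 with the block. All points but that of Rps27l lie below 0, between -0.94 and -0.28.

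The spread around this common shift was narrow once samples of the same number were compared. The median log2 difference of the 78 members was -0.73 within number 1, -0.68 within number 2 and -0.49 within number 3, where all tested genes had medians of 0.03, 0.03 and 0.00. In all 3 numbers 76 members were lower (21% of all tested genes were), and 1, Rpl39l, was higher in all 3 (23.9%). The standard deviation of the 3 differences had a median of 0.15 over members and 0.42 over all tested genes. Most members are abundant, whereas all tested genes include those of few reads, whose log2 differences carry more counting error. No genes matched to the members in level were compared. Members were not alone in this narrow spread. The median was 0.12 over ribosomal proteins named outside the rule, 0.11 over elongation genes and 0.21 over initiation factors. It was 0.28 over mitochondrial ribosomal proteins and 0.30 over ribosome biogenesis genes (lists described below). Within groups, by contrast, members varied about as much as other genes: the median SD of log2 CPM was 0.44 and 0.33 in ILT3- and ILT3+, against 0.41 and 0.35 over all tested genes. Members deviated from their group mean together, by a median of 0.46, -0.09 and -0.36 in ILT3- samples 1 to 3, and of 0.37, -0.14 and -0.22 in ILT3+ samples 1, 2 and 3. ILT3- sample 1 was the highest library for 75 of 78 members, and ILT3+ sample 2 or 3 the lowest for 73.

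**Figure D3:**
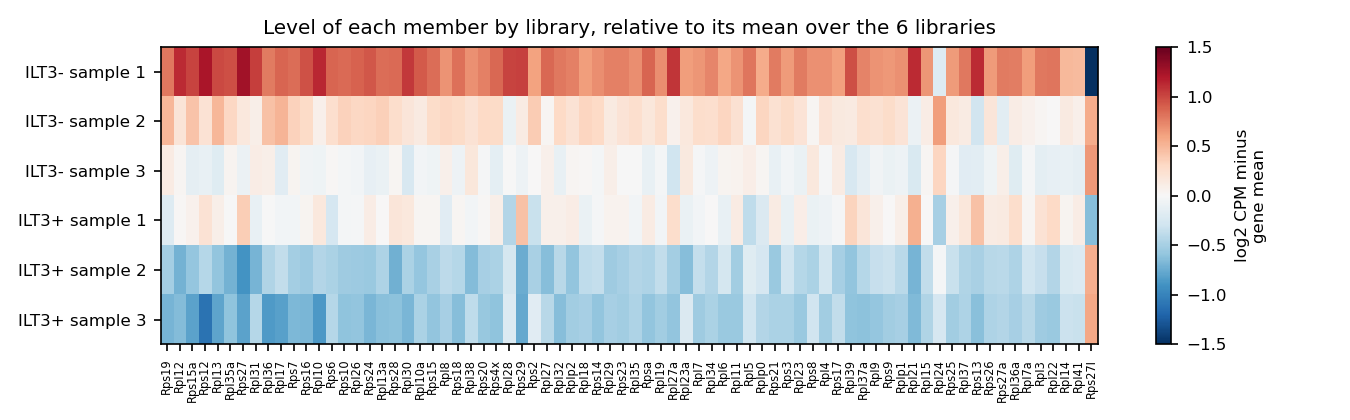
Log2 CPM of each gene (columns, ordered by fold change) in each library (lines of the grid) minus the gene's mean over the 6 libraries; Rpl39l and 3 further genes are not drawn. ILT3- sample 1 is red for all but Rpl24 and Rps27l, and ILT3+ samples 2 and 3 are blue for nearly all.

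The start sites of several members hold a run of pyrimidines, as is known of these genes. In RefSeq's promoter table (GRCm38.p6), 60 of 80 members had 72 entries, read here in a window of 30 bases with the start site at base 16. In the lines that follow, on the transcript strand, capitals mark the longest run of C or T. They show Rps6, Rpl4, Rplp2, Rps15a and Rpl12 from the genes described by value, Rpl35 for its long run, and Rps27l and the mitochondrial Mrpl30 for comparison. The lines are examples and not a balanced sample. Not shown are, for instance, Rplp0, Rpl10 and Rpl41, with longest runs of 5, 3 and 3 bases, and Rpl14 and Rpl15, with 14 and 17.
Rps6, chr4:86857353-86857382, minus strand: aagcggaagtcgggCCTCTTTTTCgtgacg
Rpl4, chr9:64173372-64173401, plus strand: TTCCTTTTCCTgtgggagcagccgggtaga
Rplp2, chr7:141447636-141447665, plus strand: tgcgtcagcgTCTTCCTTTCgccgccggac
Rps15a, chr7:118116133-118116162, minus strand: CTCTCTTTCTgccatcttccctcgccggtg
Rpl12, chr2:32961697-32961726, plus strand: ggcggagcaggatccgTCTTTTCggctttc
Rpl35, chr2:39005117-39005146, minus strand: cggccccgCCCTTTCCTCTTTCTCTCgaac
Rps27l, chr9:66946071-66946100, plus strand: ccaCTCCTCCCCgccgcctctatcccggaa
Mrpl30, chr1:37890462-37890491, plus strand: gaaccaaagaaccgtacggTCTgtgacggc

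The run covers the start site in Rps6, Rplp2 and Rpl35, begins just after it in Rpl12, and lies upstream of it in Rpl4, Rps15a and Rps27l. A run of at least 8 bases that are each C or T, on the transcript strand, was found in 27 of 72 member entries (37.5%). It was found in 12.0% of all 32851 entries of the table and in 9 of 73 entries of mitochondrial ribosomal proteins (12.3%). Among the other lists described below, it was found in 2 of 5 entries of ribosomal proteins named outside the rule (40.0%). Elongation genes had it in 1 of 10 entries (10.0%) and initiation factors in 6 of 31 (19.4%). Ribosome biogenesis genes had it in 1 of 39 entries (2.56%) and the regulators in 1 of 8 (12.5%). A C at the start site followed by 4 further bases that are each C or T occurred in 13 member entries (18.1%) and in 2.51% of all entries. The window and the run length were chosen after the members' start sites had been seen, and no other setting was tried. Rps27l, with a log2 fold change of 0.10, has such a run of 9 bases in the entry shown, and Rps19, with one of -0.95, has none of 8 in its 3 entries. These are matches of letters in a window and nothing more.

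Among the proteins of the 40S subunit, Rps19, whose human counterpart is mutated in Diamond-Blackfan anaemia, had the largest fall. Rps19 (GRCm38 chr7:24884371-24889806) had 2472, 2021 and 1557 CPM in ILT3- samples 1 to 3, against 1248, 1004 and 882 CPM in ILT3+ samples. All ILT3+ values were below all ILT3- values. Its log2 fold change was -0.95 with an SE of 0.24 (edgeR adjusted p = 0.101 on group alone, 0.00362 with the block).

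Rps15a (chr7:118104378-118116186), a core protein of the small subunit, had 1783, 1188 and 803 CPM in ILT3- and 917, 591 and 505 CPM in ILT3+ samples. Here the groups overlapped, because ILT3+ sample 1 exceeded ILT3- sample 3, while each number taken alone was lower in ILT3+. Its log2 fold change was -0.91 ± 0.34 (SE; edgeR adjusted p = 0.291, with the block 0.00782). Rps12 (chr10:23785211-23787195) was less abundant, at 258, 129 and 102 CPM in ILT3- and 128, 81.7 and 51.0 CPM in ILT3+, with a log2 fold change of -0.90 ± 0.43 (SE; edgeR adjusted p = 0.429, with the block 0.0188). Rps12 shared with Rps27 the lowest uniquely placed share, with 0 of 6060 exon reads placed uniquely, which allows a share of up to 0.0495%.

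Rps6, the ribosomal protein that S6 kinases phosphorylate downstream of mTOR, had 1993, 1301 and 1107 CPM in ILT3- and 919, 783 and 813 CPM in ILT3+ samples. The groups did not overlap, and the log2 fold change was -0.81 ± 0.25 (SE; edgeR adjusted p = 0.191, with the block 0.0274). Its differences within numbers were among the more uneven, -1.12, -0.73 and -0.45. For Rps29, with 1318, 705 and 618 CPM in ILT3- against 880, 388 and 381 CPM in ILT3+, sample 1 of each group was the highest and the log2 fold change was -0.68 ± 0.41 (SE). It fell with the block (edgeR adjusted p = 0.0128).

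Rps27 and Rps27l are paralogs of the small subunit that differ in a few residues, and Rps27l is known as a p53 target. Rps27 (chr3:90212725-90213615), with the highest level per length of all members at a mean of 3221 RPKM (CPM divided by the exon length in kilobases), had 1726, 802 and 674 CPM in ILT3- and 927, 387 and 412 CPM in ILT3+ samples. Its differences within numbers were -0.90, -1.05 and -0.71, and it fell with the block (log2 fold change -0.89 ± 0.10 SE, edgeR adjusted p = 0.00744). Rps27l (chr9:66946086-66949516) had 21.0, 99.0 and 106 CPM in ILT3- and 43.2, 98.7 and 100 CPM in ILT3+ samples. Both samples numbered 1 were low, and the other four lay close together. The log2 fold change of Rps27l was 0.10 ± 0.57 (SE; edgeR adjusted p = 0.970, with the block 0.569), and it turned to -0.06 without both samples numbered 1. The difference between the paralogs was not tested.

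In the 60S subunit the stalk proteins Rplp0, Rplp1 and Rplp2, which recruit elongation factors, all fell with the block. Rplp0 (chr5:115559467-115563727) had 6730, 5700 and 4657 CPM in ILT3- and 3926, 3826 and 3374 CPM in ILT3+ samples, without overlap (log2 fold change -0.62 ± 0.20 SE; edgeR adjusted p = 0.221, with the block 0.0134). Rplp1 had 2115, 1509 and 1245 CPM against 1388, 988 and 927 CPM, and Rplp2 had 1080, 738 and 649 CPM against 687, 424 and 445 CPM. In these smaller stalk proteins ILT3+ sample 1 lay above ILT3- sample 3. Their log2 fold changes were -0.56 ± 0.26 and -0.66 ± 0.28 (SE), and their edgeR adjusted p with the block was 0.0185 and 0.0151.

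Rpl12, which sits at the base of the stalk, had the largest fall of the 60S subunit. Rpl12 (chr2:32961559-32964496) had 1093, 577 and 515 CPM in ILT3- and 511, 308 and 321 CPM in ILT3+ samples. The groups were separate, if only just, as ILT3+ sample 1 lay slightly below ILT3- sample 3. The log2 fold change was -0.94 ± 0.34 (SE), with an edgeR adjusted p of 0.273 on group alone and 0.00985 with the block.

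Rpl8 and Rpl4 had 100% of their exon reads counted as unique in the deposited tables. Rpl8 (chr15:76904071-76906318) had 2409, 1858 and 1580 CPM in ILT3- and 1342, 1145 and 1065 CPM in ILT3+ samples. Rpl4 (chr9:64173387-64178562) had 5478, 3920 and 3377 CPM in ILT3- and 3245, 2808 and 2384 CPM in ILT3+ samples. Neither gene's groups overlapped. The log2 fold changes were -0.72 ± 0.22 and -0.60 ± 0.24 (SE; edgeR adjusted p = 0.180 and 0.324, with the block 0.00976 and 0.0155). Rpl32 fell by 0.65 on the log2 scale with the block (edgeR adjusted p = 0.0109), and its level per length was the fourth of all members at 2710 RPKM.

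In 3 paralog pairs of the 60S subunit, Rpl3 and Rpl3l, Rpl10 and Rpl10l, and Rpl39 and Rpl39l, nearly all reads belonged to the common form. Rpl3, which reaches towards the peptidyl transferase centre, had 5009, 2948 and 2602 CPM in ILT3- and 3367, 2267 and 1992 CPM in ILT3+ samples, and Rpl3l, known as a form of striated muscle, had no reads. Rpl10, which joins the large subunit late in its assembly, had 1098, 529 and 478 CPM against 557, 368 and 274 CPM, and Rpl10l, known as a form of the testis, had no reads. Rpl39 had 829, 468 and 360 CPM against 538, 283 and 279 CPM. In all of these genes sample 1 of each group was the highest and the groups overlapped. They fell with the block (log2 fold changes -0.45, -0.77 and -0.57, edgeR adjusted p = 0.0280, 0.0174 and 0.0357).

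Rpl39l, a paralog of Rpl39 known from the testis and from tumours, had 0, 0 and 8 exon reads in the ILT3- group against 18, 16 and 20 in the ILT3+ group, that is 0, 0 and 0.767 CPM against 2.27, 1.71 and 2.16 CPM. All ILT3+ values were above all ILT3- values. It did not pass (log2 fold change 2.81 ± 1.30 SE, edgeR adjusted p = 0.414, with the block 0.237), and with so few reads the fitted fold depends on the count added before taking logs.

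The 16 members that did not pass with the block were Rpl7a, Rpl22, Rpl5, Rpl21, Rpl28, Rpl27a, Rps13, Rps27l, Rpl14, Rpl41, Rps27a, Rpl37, Rpl39l, Rpl24, Rps2 and Rpl36a. All of them but Rps27l and Rpl39l had negative log2 fold changes, with Rpl37 closest to the threshold (edgeR adjusted p = 0.0523 with the block). Apart from Rps27l, the smallest differences were those of Rpl41 and Rpl14, with log2 fold changes of -0.29 ± 0.22 and -0.35 ± 0.22 (SE), and of Rpl22 with -0.47 ± 0.33 (SE). Rpl41, the smallest protein of the ribosome, had 1219, 922 and 801 CPM in ILT3- and 947, 763 and 698 CPM in ILT3+ samples.

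A few members, named after their values were seen, differed between numbers. Rpl28 had a log2 difference of -1.45 within number 1 but of -0.16 and -0.20 within numbers 2 and 3. Rpl5, part of the 5S particle that restrains Mdm2, had -1.18, -0.15 and -0.40, and Rps2 had -0.93, -0.86 and -0.18. Together with Rpl31, Rps6, Rps27l and Rpl39l these were the 7 members whose 3 differences had a standard deviation above 0.3.

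Levels per length were set over a wide range, from 7.72 RPKM (Rpl24) to 3221 RPKM (Rps27) among the 77 members of at least 10 CPM, with a median of 492 RPKM over all 78. The deposited span of Rpl24, chr16:55973883-56008913, does not hold its RefSeq start site (chr16:55966275, plus strand). Its values here may therefore not be those of Rpl24. The next lowest of these members was Rpl21 at 31.0 RPKM. Other members of high level were Rplp0 (2834), Rplp1 (2752), Rpl32 (2710) and Rpl4 (2486). The deposited exon length of some members, such as 4685 bases for Rps19, is longer than a spliced transcript of so small a protein, and their levels per length are then understated. The order of the members was nearly the same in both groups (Pearson r of log2 RPKM 0.99 across 77 genes, which share their libraries).

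Ribosomal protein genes have many processed pseudogenes, and total reads exceed unique reads in the deposited tables. What makes a read unique is not given in the sources used here; it is read here as matching 1 place only, from the column names. Of the 80 members, 53 had at least 1 pseudogene entry named after them. In all, 222 entries had a pseudogene name of a ribosomal protein, not all of them named after a member. Only 36.6% of the members' exon reads were placed uniquely, against 81.7% over all genes, and this share was 34.9% to 37.9% in each of the 6 libraries. Gene by gene the median was 18.2%: 29 members were under 10%, 18 at 50% or more and 11 at 80% or more. Rps12 and Rps27 had 0% (for Rps27, 0 of 39638 reads, which allows up to 0.00757%) and Rps6 0.223%, whereas Rpl4 and Rpl8 had 100%.

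Unique reads gave nearly the same picture for the sum. The members' share of unique exon reads was 4.95%, 3.97% and 3.23% in ILT3- and 3.20%, 2.58% and 2.34% in ILT3+ samples 1, 2 and 3. The groups now did not overlap, by a small margin, the ratio of means was 0.668 and the exact two-sided permutation p was 0.1, the smallest possible. The 18 members of at least 50% unique reads had a ratio of 0.675 in total exon reads (exact two-sided permutation p = 0.1). The pseudogene entries themselves held 0.0307% of total exon reads in ILT3- and 0.0215% in ILT3+ cells.

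Fewer members passed in unique reads. In unique exon reads edgeR called 0 of 76 tested members on group alone (29 lower at an unadjusted p under 0.05, as were 5.07% of all 11005 tested genes; 1.85% called). With the block it called 27 lower (1.99% of all tested genes lower), all of which were among the 62 called from total reads. The median log2 fold change was -0.61 on group alone. It was within 0.1 of the value from total reads for 45 of 76 members.

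Among members of at least 10 CPM in both total and unique reads, the largest gaps were in Rps29, Rpl10 and Rpl15, which had 1.38%, 6.68% and 6.88% of their reads placed uniquely. Their log2 fold changes were -0.68, -0.81 and -0.55 in total reads and -0.19, -0.41 and -0.16 in unique reads. Their values in total reads thus rest mostly on reads not counted as unique. Of the 18 members of at least 50% unique reads, 13 passed with the block in total reads, all lower. Over all members 62 of 78 did, and over all tested genes 2.47% were called lower.

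**Figure D4:**
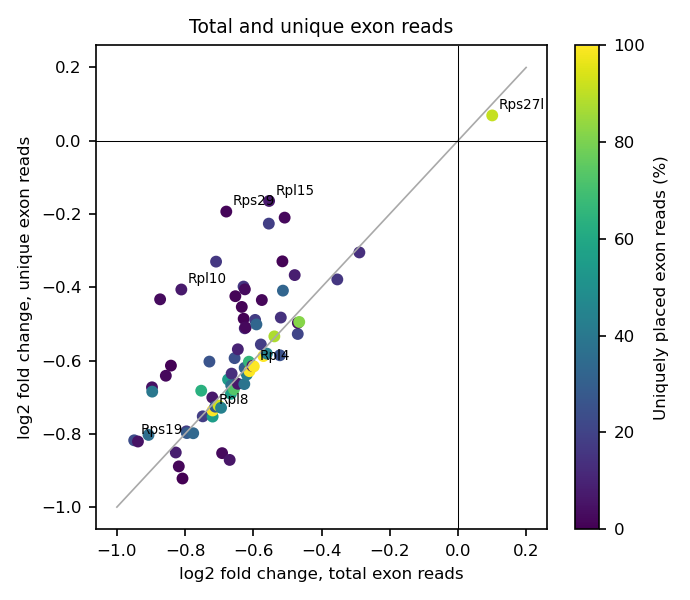
Log2 fold change (ILT3+ against ILT3-) of each gene of at least 10 CPM in total exon reads (horizontal axis) and unique exon reads (vertical axis), on group alone (3 genes are not drawn); colour gives the percent of reads placed uniquely and the grey line marks equal values. Genes of high unique share lie near the line, and Rps29, Rpl10 and Rpl15, of low unique share, lie above it.

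Across the members the fold change followed none of the other measured properties closely. The Pearson correlation of the log2 fold change was -0.13 with log2 CPM, -0.06 with log2 exon length, 0.25 with the percent of unique reads and -0.34 with the number of pseudogene entries (77 genes, description only, since genes share libraries and depth).

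Some of the ribosomal proteins whose symbols fall outside the rule also fell with the block. Of the 7 tested, edgeR called 0 on group alone (3 lower at an unadjusted p under 0.05) and 4 lower with the block, among them Fau, Gnb2l1 and Rps3a1, where 2.47% of all tested genes were called lower. Rpl36al, Rpl22l1 and Rpl7l1, paralogs of Rpl36a, Rpl22 and Rpl7, did not pass with the block, with log2 fold changes of -0.17, -0.49 and 0.22 on group alone (edgeR adjusted p = 0.467, 0.199 and 0.445 with the block). Rpl7l1 was higher in ILT3+ in all 3 numbers. Gnb2l1, also called Rack1, a scaffold of the small subunit with 99.9% of its reads placed uniquely, had 2040, 1460 and 1306 CPM in ILT3- and 1261, 932 and 950 CPM in ILT3+ samples. Its groups did not overlap, and its log2 fold change was -0.61 ± 0.24 (SE; edgeR adjusted p = 0.303, with the block 0.0156). The median of these 7 was -0.57.

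Most tested genes of the elongation list fell with the block. Of 7 tested, edgeR called 0 on group alone (3 lower at an unadjusted p under 0.05, as were 4.84% of all tested genes) and 5 lower with the block (Eef1a1, Eef1b2, Eef1g, Eef2 and Tpt1; 2.47% of all tested genes), with a median log2 fold change of -0.41 on group alone. Eef1b2, an exchange factor of Eef1a1, had 1499, 1053 and 1004 CPM in ILT3- and 912, 735 and 692 CPM in ILT3+ samples. Its groups did not overlap and the edgeR adjusted p was 0.287 on group alone and 0.0173 with the block. Tpt1, long known as a transcript with a pyrimidine tract at its start, had a log2 fold change of -0.64 (edgeR adjusted p = 0.0273 with the block). In the start-site window used above, however, the longest run of C or T in the Tpt1 entry was 4 bases, short of the 8 counted there.

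The remaining lists of the translation machinery did not share this shift in their medians. Of 38 initiation factors 25 were negative, the median was -0.10 and edgeR called 0 with or without the block (0 and 7 lower at an unadjusted p under 0.05, as were 4.84% and 8.67% of all tested genes). The 40 ribosome biogenesis genes had a median of -0.06 and 0 calls by either fit of edgeR (0 and 2 lower at an unadjusted p under 0.05), with Npm1 at -0.32 and Nop56 at -0.44. The 76 mitochondrial ribosomal proteins, which form a separate ribosome, had a median of 0.09 and 49 positive values, and edgeR called 0 on group alone and 1 lower with the block, Mrpl30 (1 lower at an unadjusted p under 0.05 in either fit). The 9 tested regulators of ribosomal protein translation, among them Mtor, Rptor, Larp1 and Rps6kb1, had a median of 0.01 and 0 calls by either fit (0 at an unadjusted p under 0.05). Without the samples numbered 1 these medians were lower: -0.01 for the mitochondrial ribosomal proteins, with 41 of 76 negative, -0.21 for biogenesis, with 33 of 40 negative, -0.14 for initiation and -0.05 for the regulators, beside -0.01 over all tested genes. Differences between lists were not tested.

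**Figure D5:**
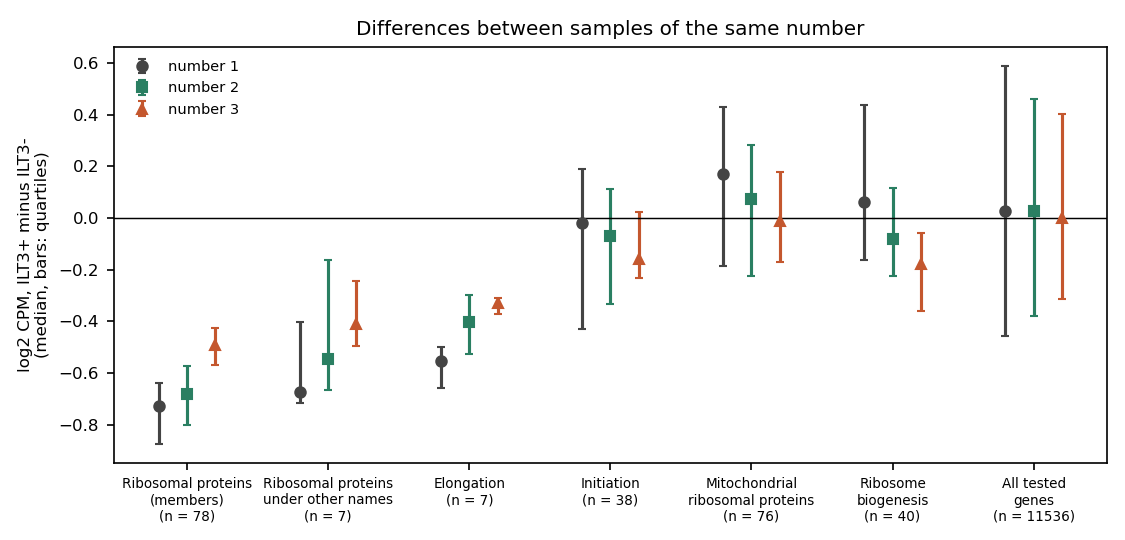
Difference in log2 CPM between ILT3+ and ILT3- samples of the same number, as the median (points) and quartiles (bars) over the tested genes of each list. The ribosomal protein genes lie at -0.73, -0.68 and -0.49, those under other names and the elongation factors are also below 0 in every number, and the mitochondrial ribosomal proteins lie at 0.17, 0.07 and -0.01.

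Of 4082 other genes of at least 50 CPM, those whose log2 CPM tracked the summed members most closely over the 6 samples included Mrpl30 (Pearson r = 0.995), Eef1d (0.992), Tpt1 (0.991) and Gnb2l1 (0.991). The summed members had 124680, 86004 and 70686 CPM in ILT3- and 73738, 54424 and 49934 CPM in ILT3+ samples 1, 2 and 3. Mrpl30 had nearly the same order, only ILT3- sample 3 and ILT3+ sample 1 changing places, with 131, 94.2 and 80.3 CPM against 76.4, 57.5 and 53.1 CPM. These genes were picked for this likeness, so the correlations describe them and carry no test.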

How the data were processed

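Per the labels' protocols, 1 ng of RNA from each sorted sample was amplified by SmartSeq V2 and turned into Nextera XT libraries. The authors deposited 1 table per sample with whole-number read counts per gene for 38924 genes, the build being GRCm38 per the submitters' processing notes. Per the file headers, total and unique reads are given for genes, exons and introns. Aligner, counter, annotation and strandedness: not given in the sources used here. Total reads were taken to include reads that match several places, a reading of the column names that no source states, and overlapping genes can share reads. Exon lengths were taken from the deposited tables for RPKM levels only.

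Counts of total exon reads, the column of the member rule, were fitted with edgeR 4.0.16 in R 4.3.3 (TMM factors, default expression filter with minimum count 10 and total 15, robust quasi-likelihood, group alone) and adjusted by Benjamini-Hochberg over all tested genes at 0.05. Standard errors were taken as |log2FC| over the square root of F. DESeq2 1.42.0, other count columns, normalizations, a replicate block and left-out samples were alternatives. Differences within numbers used log2(CPM + 0.5). Shares were compared by exact permutation over samples. Intervals cover counting error only, since reads carry no molecular identifiers, and 3 reads corresponded to 0.293 to 0.448 CPM. The scripts were tested on simulated data.

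Sample numbers occur in both groups. For samples sharing a number, the correlation of gene deviations from the group mean was 0.352, 0.241 and 0.232; all exceeded 0.1, the bound for treating numbers as pairs. ILT3- 2 with ILT3+ 3 (0.115) and ILT3- 3 with ILT3+ 2 (0.148) passed it too, so numbers 2 and 3 are not told apart by it. Fits of all 4 count columns, blocked and unblocked, had been explored before this check; the fit on group alone was retained. Members, lists and markers were chosen with earlier results of these data known. Genes were named by a rule: the 6 highest RPKM, the 5 largest fold changes in each direction, stalk genes, paralog pairs, the 3 lowest and 3 highest unique shares, the 3 largest gaps between total and unique reads (members of at least 10 CPM in both), and up to 3 genes per other list; other names were chosen after their values were seen. The list symbols Larp1b and Ebf1 were not matched. A few genes that the rule names are not reported here.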

Additional observations from a re-analysis of the deposited data

How the results depend on the processing

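The median log2 fold change of the members stayed negative under every alternative run, from -0.87 (without ILT3+ sample 1) to -0.41 (without ILT3- sample 1), and the ratio of their shares stayed below 1, from 0.600 to 0.760 with 1 library left out and 0.633 with TMM-scaled library sizes. Their calls changed most with the replicate block (pairing by number), and also with both samples numbered 1 left out and with DESeq2. Called members were 0 with edgeR on group alone and in each leave-one-out fit, 62 with the block and 27 with the block in unique exon reads. Without a block there were 19 with both samples numbered 1 left out and 5 with DESeq2. Of settings added after seeing the data, the block gave 63 with TMM factors computed without the members, and 61, 9 and 43 without the samples numbered 1, 2 or 3; fits on 2 pairs leave 1 residual degree of freedom per gene before pooling. All genes called went from 236 to 700 with the block, 562 with the block in unique exon reads, 774 without both samples numbered 1, 743 with DESeq2, 711 with the block and TMM without the members, 1098 with the block without number 1, and 22 to 255 in leave-one-out fits (22 without ILT3+ sample 2). Unique exon, total gene and unique gene reads, RLE factors, TMM without members and no filter each gave 0 called members. With 1 library left out the log2 fold change of Rps27l ran from -0.34 (without ILT3- sample 1) to 0.41 (without ILT3- sample 3); it reached 0.49 with the block without number 3, was -0.07 and -0.10 without ILT3+ sample 2 or 3, and was -0.059 without both samples numbered 1, with or without the block. The 60S to 40S ratio of groups turned from 1.05 to 0.994 in members of at least 50% unique reads. The cause of these changes was not tested. Depth limits Rpl39l and the unique reads of low-unique genes.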
